A study of Homo sapiens with 8 samples.

Results

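De novo purine synthesis is described here through 10 genes, PRPS1, PPAT, GART, PFAS, PAICS, ADSL, ATIC, IMPDH1, IMPDH2 and GMPS, which were matched by symbol to Ensembl identifiers among the 58051 genes of the count files. All 10 passed the filter on low counts, a BaseMean (the mean over samples of counts scaled by DESeq2 size factors) above 5, and so belonged to the 7550 genes tested. RNA was sequenced in 8 samples of MDA231 (MDA-MB-231), a human breast cancer cell line, and its sublines. Parental, unmodified cells gave 2 samples, and the sublines gave 3 each: SDHB-KO, called knockout cells here, and SDHB-KO SDHA-low, called double-modified cells. In the knockout subline the gene for SDHB, the iron-sulfur subunit of mitochondrial complex II (succinate dehydrogenase), was disrupted with a TALEN against exon 1, followed by selection with hygromycin. In the double-modified subline an shRNA against SDHA, the flavoprotein subunit, was added under puromycin selection, and the SDHB knockout was retained. No group received a drug or other treatment, and all cells were harvested in full medium before they covered the dish. The sources used here do not say whether a subline is a single clone or whether the knockout samples carried an empty shRNA vector, so that the selection, the clone and the lost subunit cannot be told apart.

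Purine rings are built stepwise on ribose phosphate. The pathway starts when PRPP synthetase activates ribose phosphate, continues through amidophosphoribosyltransferase and a series of ring-building enzymes to IMP, and then branches to AMP and GMP. Glutamine, glycine, aspartate, bicarbonate and formyl groups carried by folate supply the atoms, so the pathway draws on aspartate and folate metabolism, both of which depend on mitochondria. Dividing cells need its products for DNA, RNA and nucleotide cofactors.

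Reads counted on genes ranged from 773042 to 1427141 per sample. Before TMM normalization, 3 counts corresponded to between 2.1 and 3.88 per 1000000 counted reads. CPM are counts per 1000000 counts on the 7550 tested genes, with TMM normalization. On the CPM scale, 3 counts were 4.10 in knockout replicate 1. The libraries read the 3' ends of polyadenylated RNA, and levels are therefore compared within a gene and not between genes. Transcripts of SDHA, the targeted gene of the double-modified subline, gave 64 and 69 counts in parental cells, 108, 121 and 140 in knockout cells, and 7, 17 and 16 in double-modified cells. SDHA was lower in double-modified than in knockout cells by a log2 fold change of -3.46 ± 0.28 (SE; edgeR quasi-likelihood test, adjusted p = 1.16e-07). SDHB had at most 4 counts in any library, including parental cells, and was not tested, so that its counts do not check the knockout label. VIM, CD44 and KRT18, which mark this line, were detected in every library, as was SPARC, listed with them, at 10 to 32 counts. The largest log2 fold change of these genes in knockout versus parental was that of SPARC, -0.69, not called. ESR1 and PGR were at 0, EPCAM and CDH1 had at most 2 counts, and ERBB2 had 15 to 25 counts with a log2 fold change of 0.42 in knockout, not called. Of 7 markers of blood, endothelial, fibroblast and basal cells, PTPRC, COL1A2 and KRT5 were at 0 in every library. The summed level of these 7 was 10.4 to 14.6 CPM in parental, 6.47 to 15.6 in knockout and 19.3 to 31.2 in double-modified cells. ACTA2 alone of them was tested, with log2 fold changes of 0.05, 1.34 and 1.39 in knockout versus parental, double-modified versus knockout and double-modified versus parental cells, none called, and the part of other cells in the results was not tested. The 3 comparisons are given in this order throughout.

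None of the 10 genes passed the threshold in any of the 3 comparisons, which were fitted together by edgeR's quasi-likelihood method with Benjamini-Hochberg adjustment over all 7550 genes and called at an adjusted p below 0.1. In knockout versus parental cells the count was 0 of 10, where 5.54% of all tested genes were called. At an unadjusted p below 0.05, edgeR passed 1 member (ATIC), beside 17.5% of all genes. DESeq2 called 0 members beside 394 genes in all, and its adjusted p was NA for 3 members, PPAT, PAICS and GMPS. In double-modified versus knockout cells 0 of 10 were called beside 1.51% of all genes, with 2 members (ATIC and GMPS) and 12.1% of all genes at an unadjusted p below 0.05. DESeq2 called 1 member here, ATIC, beside 128 genes in all, and its adjusted p was NA for 1 member, PPAT. In double-modified versus parental cells 0 of 10 were called beside 0.914% of all genes, with 2 members (GART and PFAS) and 12.3% of all genes at an unadjusted p below 0.05. There DESeq2 called 0 members beside 79 genes in all, and its adjusted p was NA for 2 members, PPAT and GMPS. The first 2 comparisons share the knockout samples, and each group enters 2 of the comparisons, so that they are not independent. With 2 or 3 samples a group, the p-values measure the spread between the sequenced samples, which may be technical where replicates did not come from separate cultures. Called genes had log2 fold changes of at least 0.62, 0.66 and 0.75 in size in the 3 comparisons.

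The median log2 fold change of the members was -0.19 in knockout versus parental cells, where the median of all tested genes was -0.00072, and 4 of 10 members were above 0. In double-modified versus knockout cells the median was 0.41 beside 0.013 for all genes, and 9 of 10 members were above 0 where 51.1% of all genes were. The median of the double-modified cells versus parental cells was 0.21 beside 0.017, with 7 of 10 above 0. Without double-modified replicate 3 it was 0.042, a median that leaves out PPAT, which had no value in that fit. Members thus ran from -0.88 to 0.71, from -0.19 to 0.84 and from -0.64 to 1.32 in the 3 comparisons. The 95% intervals lay within a 2-fold difference (1 on the log2 scale) for 7 of 10 members in each comparison. Those that reached beyond it were PPAT, PAICS and GMPS in both comparisons with knockout cells, and PPAT, GART and PFAS in double-modified versus parental cells.

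Summed over the 10 genes, the level was 1490 and 1459 CPM in parental cells, 1464, 1318 and 1383 CPM in knockout cells, and 1760, 1625 and 1696 CPM in double-modified cells. The means were 1475 ± 22.1 (SD, n = 2), 1389 ± 72.9 (n = 3) and 1694 ± 67.3 (n = 3). The sum is weighted to the genes with the most counts, ADSL, ATIC and IMPDH2. All 3 double-modified libraries were above the other 5, and the parental and knockout libraries overlapped. The sum of 13 proliferation markers, given for comparison, was 3043 and 3118 CPM in parental, 2594 to 2827 in knockout and 2802 to 2913 in double-modified cells, with 0 of 13 genes called in any comparison. In bulk RNA, a change in the share of cells that express a gene and a change in RNA per cell cannot be told apart.

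**Figure D1:**
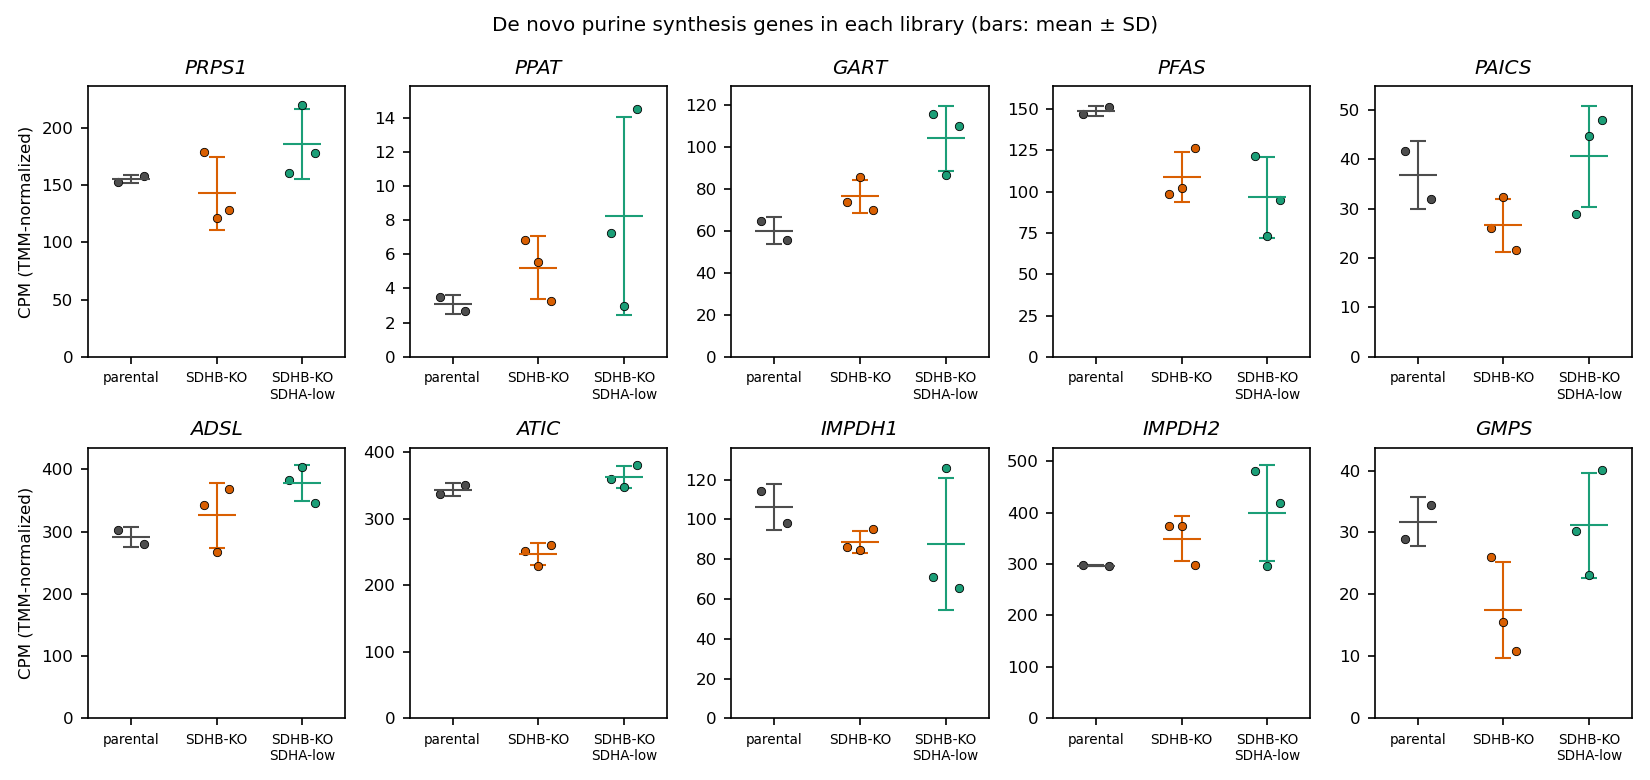
Level of each of the 10 genes in the 8 libraries, in TMM-normalized CPM on axes that start at 0. Points are libraries and bars are the mean and SD of each group (n = 2, 3 and 3). In the ATIC panel the 3 knockout libraries, at 229.0 to 261.1 CPM, lie below the other 5.

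PRPS1 (ENSG00000147224; X:107628428-107651993, plus strand, GRCh38) encodes the PRPP synthetase that makes the activated sugar on which the purine ring is assembled. Its level was 152.7 and 158.0 CPM in parental cells, 179.2, 121.2 and 128.4 CPM in knockout cells, and 160.5, 220.1 and 178.3 CPM in double-modified cells. All 3 double-modified libraries were above both parental libraries, whereas knockout libraries lay on either side of them. The log2 fold change was -0.12 (95% interval -0.63 to 0.38) in knockout versus parental, 0.39 (-0.05 to 0.84) in double-modified versus knockout, and 0.27 (-0.23 to 0.77) in double-modified versus parental cells. Adjusted p was 0.847, 0.479 and 0.692.

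PPAT (ENSG00000128059; 4:56393362-56435615, minus strand) encodes amidophosphoribosyltransferase, the committed and feedback-regulated step. It was counted 3 and 2 times in parental cells, 5, 5 and 3 times in knockout cells, and 6, 4 and 13 times in double-modified cells. Most libraries were therefore within a few counts of the 3-count floor, and the gene passed the filter narrowly, with a BaseMean of 5.09. In CPM the groups overlapped, at 2.65 and 3.47 in parental, 3.24 to 6.84 in knockout and 2.98 to 14.5 in double-modified cells. The widest intervals of the 10 genes belonged to PPAT, from -1.12 to 2.54 around 0.71, from -0.76 to 1.98 around 0.61, and from -0.40 to 3.04 around 1.32, so that these counts do not separate equal levels from a 2-fold difference.

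GART (ENSG00000159131; 21:33503931-33543491, minus strand) encodes a trifunctional enzyme that adds glycine, carries out a formyl transfer from folate and closes the imidazole ring. It was at 64.8 and 55.8 CPM in parental cells, 73.9, 85.6 and 70.1 CPM in knockout cells, and 115.9, 86.6 and 110.3 CPM in double-modified cells. The 3 groups did not overlap in either step, although the highest knockout library and the lowest double-modified library, 85.6 and 86.6 CPM, were close. GART was the only member above both other groups in double-modified cells and above parental cells in both sublines. Log2 fold changes were 0.34 ± 0.27 (SE; adjusted p = 0.540), 0.44 ± 0.23 (0.443) and 0.78 ± 0.26 (0.203). In double-modified versus parental cells the value was 0.90 with an adjusted p of 0.0966 without double-modified replicate 2, which passes the threshold. Leaving out that library also raised the number of genes called over all tested genes in this comparison. Reads of SON, a gene on the opposite strand that overlaps GART, numbered 79 to 121 per library, and the strand setting of the counting is not given in the sources used here.

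PFAS (ENSG00000178921; 17:8247618-8270491, plus strand) encodes formylglycinamidine ribonucleotide synthase, which brings in a nitrogen from glutamine. Parental libraries had 146.9 and 151.3 CPM, knockout libraries 98.5, 102.3 and 126.3 CPM, and double-modified libraries 121.9, 73.1 and 94.7 CPM. Both parental libraries were above all 6 libraries of the sublines, which overlapped each other. The log2 fold change was -0.45 ± 0.25 (SE; adjusted p = 0.367) in knockout versus parental, -0.19 ± 0.23 (0.788) in double-modified versus knockout, and -0.64 ± 0.25 (0.286) in double-modified versus parental cells, where the 95% interval, -1.16 to -0.12, excluded 0 before adjustment. PFAS lies on the short arm of chromosome 17, where 147 tested genes start below position 22000000. Their median log2 fold change was 0.21, -0.41 and -0.16 in the 3 comparisons, and 11, 0 and 0 of them were called higher and 1, 10 and 1 lower. Over all 7550 tested genes, 237, 24 and 17 were called higher and 181, 90 and 52 lower. PFAS itself was below the arm's median in knockout and in double-modified cells versus parental cells. In double-modified versus knockout cells it was above that median. CTC1 overlaps PFAS on the opposite strand and had 23 to 72 counts per library.

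PAICS (ENSG00000128050; 4:56435741-56464578, plus strand) encodes the bifunctional enzyme that carboxylates the imidazole ring and joins aspartate to it. Its start lies 126 bp from that of PPAT on the opposite strand, so that the pair is read outward from the same region. That region is shown because the starts of both genes lie in it. It is given as the 300 bases from 250 before to 50 after the RefSeq start of PAICS (GRCh38.p14, chr4:56435502-56435801, plus strand), with the E-box CACGTG, the core motif of MYC and related factors, in capitals.
PAICS: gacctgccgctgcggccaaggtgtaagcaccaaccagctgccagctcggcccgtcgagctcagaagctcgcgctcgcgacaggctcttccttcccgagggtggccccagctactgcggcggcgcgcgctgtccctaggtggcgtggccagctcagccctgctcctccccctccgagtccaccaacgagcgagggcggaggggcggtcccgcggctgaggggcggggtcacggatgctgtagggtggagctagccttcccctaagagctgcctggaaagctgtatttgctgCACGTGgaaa
The E-box lies at position 41 from the PAICS start, in bases that also fall in the window of PPAT, at -182 from its start. PAICS was at 41.6 and 31.9 CPM in parental cells, 26.0, 32.2 and 21.6 CPM in knockout cells, and 29.0, 44.8 and 47.9 CPM in double-modified cells. The groups overlapped in every comparison. Log2 fold changes were -0.47 ± 0.36 (SE; adjusted p = 0.536), 0.62 ± 0.32 (0.443) and 0.15 ± 0.35 (0.902). In knockout versus parental cells the values for PAICS and PPAT were on opposite sides of 0, -0.47 and 0.71, with intervals that overlapped.

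ADSL (ENSG00000239900; 22:40346461-40390463, plus strand) encodes adenylosuccinate lyase, which releases fumarate both on the way to IMP and on the way to AMP. Its level was 303.1 and 280.1 CPM in parental cells, 342.1, 267.9 and 368.0 CPM in knockout cells, and 383.8, 404.4 and 346.5 CPM in double-modified cells. The double-modified libraries were all above the parental ones, and the knockout libraries overlapped both groups. The log2 fold changes, 0.16 ± 0.21 (SE), 0.22 ± 0.19 and 0.38 ± 0.21, were within a 2-fold difference with their intervals, and adjusted p was 0.759, 0.689 and 0.497. SGSM3 overlaps ADSL on the same strand and had 14 to 44 counts per library.

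ATIC (ENSG00000138363; 2:215311956-215349773, plus strand) encodes the bifunctional enzyme of the last steps to IMP, a formyl transfer from folate and the closure of the purine ring. It was at 336.7 and 350.5 CPM in parental cells, 251.8, 229.0 and 261.1 CPM in knockout cells, and 359.6, 347.0 and 380.0 CPM in double-modified cells. All 3 knockout libraries were below all 5 others, and the parental and double-modified libraries overlapped. Group means were 343.6 ± 9.75 (SD, n = 2), 247.3 ± 16.5 (n = 3) and 362.2 ± 16.7 CPM (n = 3). The log2 fold change was -0.47 ± 0.20 (SE) in knockout versus parental cells, with a 95% interval of -0.89 to -0.05 and an adjusted p of 0.216. From knockout to double-modified cells it was 0.55 ± 0.18, with an interval of 0.17 to 0.93 and an adjusted p of 0.201. Both intervals exclude 0 before adjustment and neither passes it. DESeq2 called ATIC in double-modified versus knockout cells, with an adjusted p of 0.0996, and edgeR did so without double-modified replicate 2, with 0.0988. Without that library edgeR also called more of all tested genes in this comparison. The double-modified cells differed from parental cells by 0.08 (-0.34 to 0.49).

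The promoter of ATIC is shown because this gene alone among the members separated the knockout libraries from both other groups. The window is chr2:215311809-215312108 on the plus strand of GRCh38.p14, and capitals mark the 2 matches to CACGTG, at -46 and 30 from the RefSeq start.
ATIC: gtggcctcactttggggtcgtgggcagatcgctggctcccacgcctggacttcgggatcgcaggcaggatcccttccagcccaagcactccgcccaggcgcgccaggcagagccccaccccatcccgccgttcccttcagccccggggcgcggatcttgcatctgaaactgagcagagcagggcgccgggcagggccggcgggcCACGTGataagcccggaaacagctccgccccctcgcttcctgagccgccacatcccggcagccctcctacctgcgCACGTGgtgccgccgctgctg
A promoter of this length was at hand for 8 of the members, and ADSL and IMPDH2 are named only. An E-box was in 3 of the 8 (ATIC, PAICS and PPAT, the last pair through 1 shared site) and in 7.256% of 35116 promoters searched on both strands. The GC box GGGCGG was in 7 of 8, all but GART, and in 45.0% of all promoters, and the CCAAT box was in 2, GART and PRPS1, and in 34.6%. In these windows no member held the ATF4 element TGATGNAA (3.617% of all promoters), the NRF1 site (8.318%), the TATA box TATAAA (11.5%) or the E2F sites TTTCGCGC and TTTGGCGC (0.515% and 0.652%). The RefSeq start of the window lay 1671 bp from the gene start given above for PFAS and 599 bp from that for GART. The GC content was 70.7% for ATIC and 68.3% for PAICS, where the median of all promoters was 58.7%. These are matches of letters in the reference sequence and no binding was measured.

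IMPDH1 (ENSG00000106348; 7:128392277-128409986, minus strand) and IMPDH2 (ENSG00000178035; 3:49024325-49029447, minus strand) encode the isoenzymes of IMP dehydrogenase, the rate-limiting step from IMP to GMP. IMPDH1 was at 114.5 and 98.2 CPM in parental cells, 86.2, 84.5 and 94.96 CPM in knockout cells, and 71.2, 126.1 and 65.7 CPM in double-modified cells. IMPDH2 was at 297.3 and 296.0 CPM in parental cells, 373.5, 374.6 and 298.9 CPM in knockout cells, and 480.3, 297.0 and 417.9 CPM in double-modified cells. In double-modified replicate 2, the deepest library, IMPDH1 was the highest of the 8 and IMPDH2 among the lowest, while replicates 1 and 3 had the lowest IMPDH1 and the highest IMPDH2 levels of all libraries. All 3 knockout libraries were below parental cells for IMPDH1 and above them for IMPDH2, where the lowest knockout library, at 298.9 CPM, was next to the higher parental library, at 297.3 CPM. The log2 fold changes of IMPDH1 were -0.27 ± 0.28 (SE; adjusted p = 0.676), 0.0047 ± 0.25 (0.995) and -0.26 ± 0.28 (0.754). Those of IMPDH2 were 0.23 ± 0.23 (0.646), 0.19 ± 0.20 (0.758) and 0.42 ± 0.23 (0.470). Without double-modified replicate 2, IMPDH1 was at -0.39 (adjusted p = 0.461) in double-modified versus knockout cells and at -0.64 (0.275) versus parental cells, and IMPDH2 at 0.35 (0.375) and 0.59 (0.167). Other omissions moved the values the opposite way: without double-modified replicate 3, IMPDH1 was at 0.18 and -0.09 in these comparisons, and without double-modified replicate 1, IMPDH2 was at 0.03 and 0.26.

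GMPS (ENSG00000163655; 3:155870650-155944020, plus strand) encodes GMP synthetase, which finishes the guanine branch with a nitrogen from glutamine. It was counted 25 and 26 times in parental cells, 19, 14 and 10 times in knockout cells, and 25, 31 and 36 times in double-modified cells. In CPM these were 28.9 and 34.5, then 26.0, 15.6 and 10.8, then 30.2, 23.1 and 40.1. Both parental libraries were above the knockout libraries, and the double-modified libraries overlapped both groups. GMPS had the largest fitted change of the members in knockout versus parental cells by size, -0.88 ± 0.43 (SE; adjusted p = 0.287), with an interval of -1.76 to 0.001. In double-modified versus knockout cells it was 0.84 ± 0.38 (adjusted p = 0.384), and versus parental cells -0.04 ± 0.40 (0.979). The pseudogene GMPSP1 (ENSG00000250471), the only pseudogene of a member with counts, had 4 to 18 per library, and reads of the pair may be split between them. With the counts of both summed, the log2 fold changes were -0.59 (adjusted p = 0.396), 0.65 (0.400) and 0.07 (0.955). The 3 genes outside the pathway with a mean above 50 CPM whose centred log2 CPM profiles over the 8 libraries were most like that of GMPS were EIF3F, IRF2BPL and ODC1, at root mean square differences of 0.203, 0.211 and 0.233, where the median over 2894 candidate genes was 0.603. They were picked as the smallest differences, so that they lie below the median by choice, and the likeness was not tested.

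**Figure D2:**
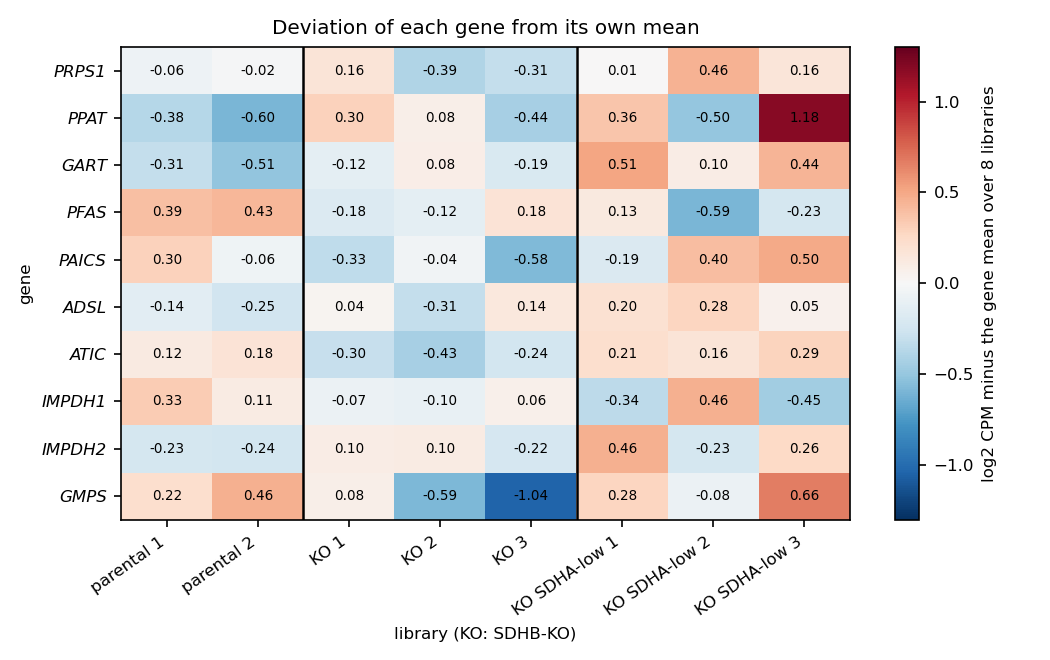
Deviation of each of the 10 genes from its own mean log2 CPM, in the 8 libraries (columns, with vertical lines between groups). Red is above and blue below the gene's mean. ATIC is lowest in the 3 knockout columns. GMPS is lowest in those of knockout replicates 2 and 3, at -0.59 and -1.04, while knockout replicate 1 is at 0.08. PPAT and GMPS have the largest spread, at few counts.

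For some of the 10 genes the libraries of different groups separated fully, which many genes of the table did as well. Knockout and parental libraries did not overlap for 6 members (GART and IMPDH2 higher, PFAS, ATIC, IMPDH1 and GMPS lower), where 37.9% of all tested genes did not overlap. In double-modified versus knockout cells 2 members, GART and ATIC, were higher in every library, beside 17.4% of all genes in either direction. In double-modified versus parental cells 4 did not overlap (PRPS1, GART and ADSL higher, PFAS lower), beside 30.7%. The knockout libraries were apart from both other groups in the same direction for 1 member, ATIC, and for 9.76% of all genes.

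**Figure D3:**
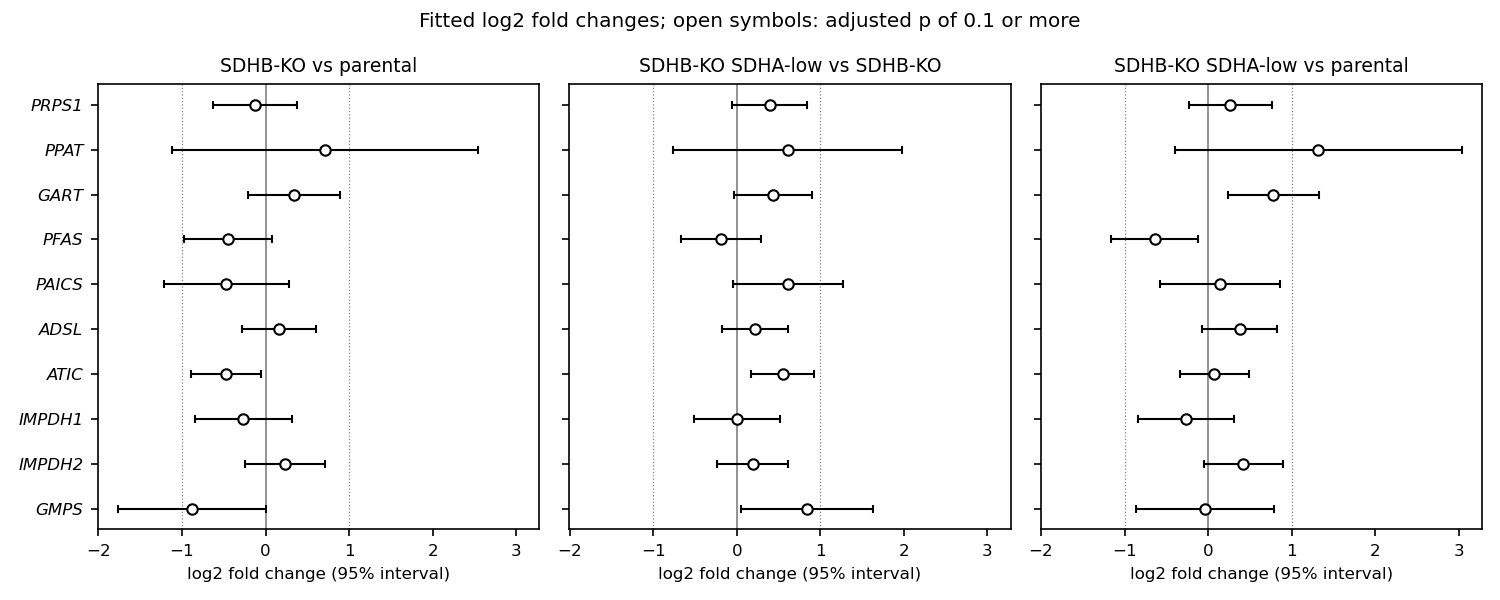
Fitted log2 fold changes of the 10 genes with 95% intervals in the 3 comparisons, from edgeR. Dotted lines mark a 2-fold difference in either direction. All symbols are open because 0 of 10 genes passed an adjusted p below 0.1, and 7 of 10 intervals lie within the dotted lines in each panel.

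Around the pathway, the enzymes that share its substrates and products were listed by function. Of the PRPP synthase family outside PRPS1, 3 of 4 were tested and 0 called, with PRPSAP1, an associated regulatory protein, at the largest log2 fold change in knockout versus parental cells (-0.42, adjusted p = 0.541). In the AMP branch 5 of 7 were tested and 0 called, and ADSS2, which commits IMP to AMP, was at -1.03 (0.460) on 2 to 16 counts per library. Purine salvage, which recycles bases and nucleosides, had 6 of 8 tested and 0 called. Adenosine deaminase, ADA, was at -1.13 (0.329) on 4 to 24 counts per library, and MTAP was at 0 counts in all 8 libraries. In purine breakdown 3 of 7 were tested and 0 called, with the nucleotidase NT5C2 at 1.55 (0.276) on 2 to 11 counts per library. Among nucleotide kinases 5 of 9 were tested and 0 called, with the mitochondrial adenylate kinase AK4 at -1.51 (0.209) on 2 to 13 counts. De novo pyrimidine synthesis and CTP synthesis, the parallel route to the other nucleotide bases, had 5 of 5 tested and 0 called. CTPS2 was at 0.19 (0.941) on 0 to 13 counts per library. The median log2 fold changes in knockout versus parental and double-modified versus knockout cells were -0.19 and 0.41 for the members and 0.10 and 0.42 for the PRPP synthase family. They were -0.40 and 0.17 for the AMP branch, -0.29 and 0.42 for salvage, 0.26 and -0.24 for breakdown, -0.04 and -0.15 for the kinases, and 0.08 and 0.09 for pyrimidine synthesis. All adjusted p-values given so far for these lists are from edgeR for knockout versus parental cells. Of the 27 tested genes of these 6 lists, edgeR passed 5, 1 and 2 at an unadjusted p below 0.05 in the 3 comparisons. DESeq2 gave an adjusted p of NA to 13, 11 and 12 of the 27, and it called 0 in both comparisons of double-modified cells.

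Genes that supply the pathway's substrates included the called ones. PSAT1, which makes the serine precursor phosphoserine, was at 84.5 and 53.1 CPM in parental cells, 12.3, 30.0 and 33.5 CPM in knockout cells, and 47.1, 38.1 and 35.7 CPM in double-modified cells. It fell in knockout cells versus parental cells by 1.42 on the log2 scale (SE 0.36; adjusted p = 0.0395), with both parental libraries above the others. This call was lost without parental replicate 1, without parental replicate 2, without knockout replicate 1 and with the replicate number as a block when knockout replicates 1 and 3 were exchanged, and DESeq2 gave an adjusted p of NA. SHMT2, the mitochondrial enzyme that splits serine into glycine and a folate-bound carbon, was at 244.1 and 241.6 CPM in parental cells, 365.3, 339.1 and 427.3 CPM in knockout cells, and 228.1, 231.3 and 193.9 CPM in double-modified cells. It fell from knockout to double-modified cells by 0.79 on the log2 scale (SE 0.19; adjusted p = 0.0463), and its value in knockout versus parental cells was 0.64 (adjusted p = 0.112 by edgeR and 0.0492 by DESeq2). Of the 13 genes of formyl-folate and glycine supply, 8 were tested, and these were the only calls. PHGDH, the entry to serine synthesis, was counted 12 and 10 times in parental cells and 0 times in all 6 libraries of the sublines. The pooled parental level was 11.9 times a floor of 3 counts over the knockout group and 14.2 times that over the double-modified group. These ratios leave out the sampling error of the parental counts. PHGDH did not pass the filter and was singled out after its values were seen. Its adjusted p in edgeR without the filter was 0.00248 in knockout and 0.00377 in double-modified cells versus parental cells, and DESeq2 gave NA.

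Of 7 genes that supply ribose phosphate, 6 were tested and 1 was called. Their median log2 fold change was -0.31, 0.16 and 0.26 in the 3 comparisons, with 2, 4 and 4 of the 6 above 0. Unadjusted p by edgeR was below 0.05 for 2, 1 and 3 of them. TKT, a transketolase of the pentose phosphate pathway, rose in knockout versus parental cells by a log2 fold change of 1.29 (SE 0.28; adjusted p = 0.0189). It was at 255.7 and 256.2 CPM in parental cells, 756.7, 425.8 and 696.0 CPM in knockout cells, and 468.2, 663.3 and 328.7 CPM in double-modified cells, so that all 6 libraries of the sublines were above both parental ones. In double-modified versus parental cells the value of TKT was 0.93 (adjusted p = 0.153 by edgeR and 0.0925 by DESeq2). The call of TKT was lost without parental replicate 1, without parental replicate 2 and without knockout replicate 1. Glutamine and aspartate supply had 6 of 9 genes tested and 0 called, with asparagine synthetase, ASNS, at 0.79 in knockout versus parental cells (adjusted p = 0.270). At an unadjusted p below 0.05 edgeR passed 2, 0 and 2 of these 6 in the 3 comparisons, and DESeq2 called 0.

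Among 5 transcription factors that are known to act on purine or serine genes, all tested, ATF4 was called. It was at 159.7 and 199.1 CPM in parental cells, 314.7, 235.7 and 325.9 CPM in knockout cells, and 155.7, 188.0 and 163.8 CPM in double-modified cells, and it fell from knockout to double-modified cells by 0.78 on the log2 scale (SE 0.20; adjusted p = 0.0750). In knockout versus parental cells ATF4 was at 0.70 (adjusted p = 0.103 by edgeR and 0.0553 by DESeq2). DESeq2 also called MAX, the partner of MYC, in this comparison (-0.70, adjusted p = 0.0955, beside 0.113 by edgeR), and MAX is named for this call after its values were seen. All 3 knockout libraries were above the other 5 for both ATF4 and SHMT2, where those of ATIC and MAX were below. The calls of SHMT2 and ATF4 were each lost without either parental replicate, without knockout replicate 1 or 3, without double-modified replicate 1 or 3, in a fit of only the compared groups, and with the replicate number as a block, as labelled or with knockout replicates 1 and 3 exchanged. MYC, a factor that binds E-boxes, was counted 2 and 0 times in parental cells, 3, 4 and 4 times in knockout cells and 10, 16 and 8 times in double-modified cells, and its log2 fold changes of 1.70, 1.33 and 3.03 were not called (adjusted p = 0.395, 0.385 and 0.147). Of the 13 proliferation markers CDK1 had the largest fitted value by size in knockout versus parental cells, -1.60 (0.182). CDK1 was counted 32 and 7 times in parental and 1, 11 and 8 times in knockout cells, and these groups overlapped. At an unadjusted p below 0.05 edgeR passed 3, 2 and 1 of these 13 in the 3 comparisons, and DESeq2 called 0.

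**Figure D4:**
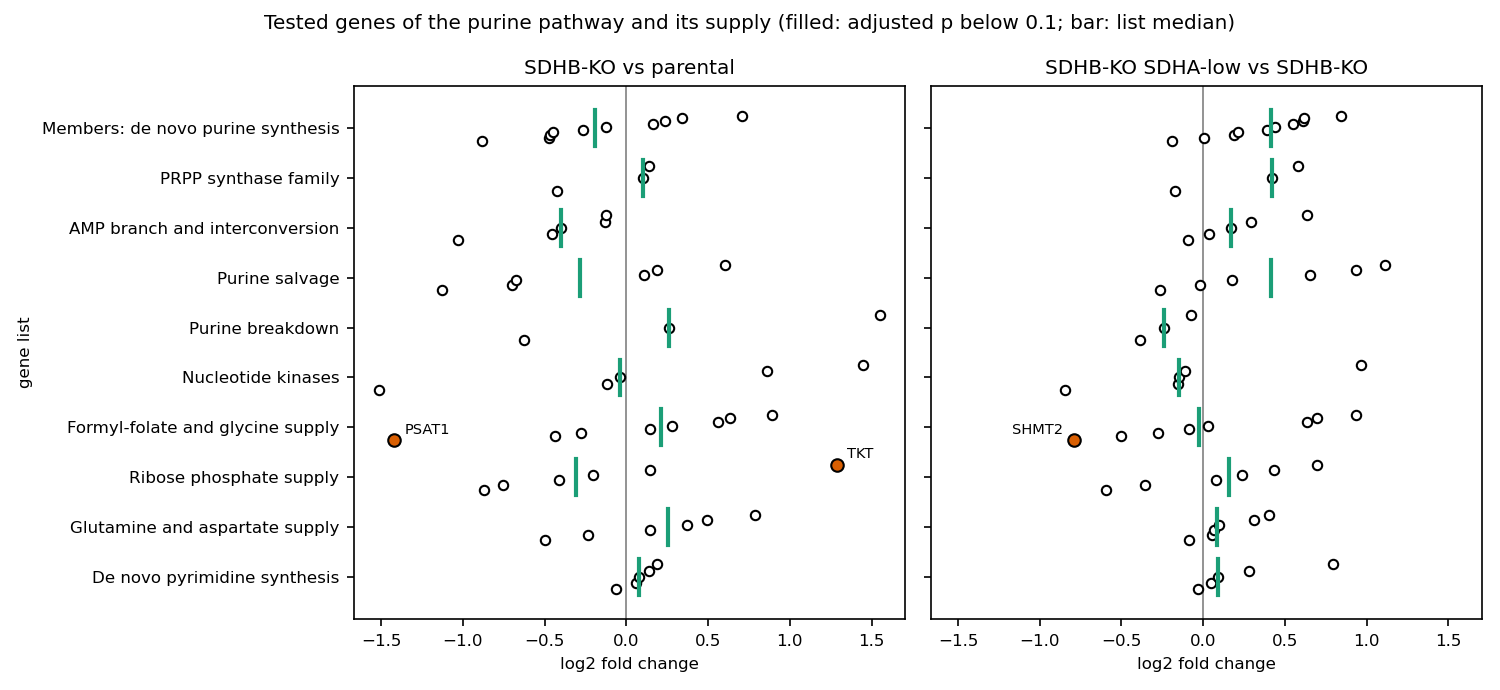
Log2 fold changes of the tested genes of the purine pathway and the lists around it, in knockout versus parental cells (left) and double-modified versus knockout cells (right). Filled points passed an adjusted p below 0.1 and are named, and the bar is the median of each list. The members' median is at -0.19 on the left and 0.41 on the right.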

How the data were processed

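Expression was measured in 8 samples, 2 to 3 a group, grouped by the modification given in their labels. The authors trimmed reads with Trimmomatic, removed ribosomal and mitochondrial reads, aligned to GRCh38 and deposited raw counts per gene made with STAR 2.5.2b. They also deposited a normalized signal, the counts divided by DESeq2 size factors, in which knockout replicates 1 and 3 match the raw counts of replicates 3 and 1. Only raw counts were used, with their own numbering. The 4 summary rows of unassigned reads were left out, and 71.4% to 81.2% of reads were counted on genes. Replicates differed by more than sampling noise (chi-squared per degree of freedom 2.19 to 11.3). The highest values, 10.6 and 11.3, were those of double-modified replicate 2 with replicates 1 and 3, which gave 3.27 with each other.

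In R 4.3.3, edgeR 4.0.16 was fitted to 7550 genes with a BaseMean above 5 (TMM, 3 groups in 1 quasi-likelihood fit, 5 residual degrees of freedom, biological coefficient of variation 21.5%). An SE is the size of the log2 fold change divided by the square root of F, and log2 CPM used a prior count of 2. DESeq2 1.42.0 was the alternative test; its adjusted p was NA for 3, 1 and 2 members in the 3 comparisons. Other alternatives were its size factors, 2 filters, a threshold of 0.05, each library left out, a block on the replicate number, and a fit to the samples of each comparison alone. Summing GMPS with its pseudogene was added after seeing the data. The fit was checked on simulated counts.

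The members and the lists around them were chosen with earlier results of these data known. All members were named, with every called gene of the lists, the gene of each list with the largest log2 fold change in knockout versus parental cells, and 3 genes with profiles nearest to that of the member with the largest such change. Positions are from GENCODE release 44 and promoters from RefSeq, both on GRCh38. The aligner's strand setting is not given in the sources used here. The DESeq2 result of 1 gene in knockout versus parental cells is not reported here.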

Additional observations from a re-analysis of the deposited data

How the results depend on the processing

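Of 441 log2 fold changes of members recomputed under 15 alternatives for 30 results, 9 changed sign, none of them called, and 3 became called: ATIC in double-modified versus knockout cells under DESeq2 and without double-modified replicate 2, and GART in double-modified versus parental cells without that library. The number of members called stayed at 0 in knockout versus parental cells; it was 1 under DESeq2 and 0 to 1 over single libraries left out in double-modified versus knockout cells, and 0 to 1 in double-modified versus parental cells. The members' median in the last comparison ran from 0.042 to 0.29 as single libraries were left out, and from -0.28 to -0.12 and 0.32 to 0.49 in the other comparisons. In the fits without double-modified replicate 1 or 3, PPAT had no value and is not part of the median.

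Counts over all genes moved more. In knockout versus parental cells 418 genes were called, but 171 at a threshold of 0.05, 773 with only the groups compared, and 0 (without parental replicate 1) to 846 (without double-modified replicate 2) with single libraries left out. In double-modified versus knockout cells 114 became 64 at 0.05, 64 with only the groups compared, and 39 (without knockout replicate 1) to 375 (without double-modified replicate 2). In double-modified versus parental cells 69 became 152 without the filter, 13 at 0.05, 7 with only the groups compared, and 4 (without parental replicate 1) to 173 (without double-modified replicate 2). The cause was not tested.

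Samples with the same number in the raw counts did not deviate together (r from -0.27 to 0.093 over 7 pairs). These correlations were not computed with knockout replicates 1 and 3 exchanged, and they do not decide whether samples are paired. With the replicate block 199, 59 and 12 genes were called in the 3 comparisons, and 94, 49 and 8 with knockout replicates 1 and 3 exchanged in the block. No member was called under either block. Depth limits PPAT most, and it had no value with edgeR's own filter on low counts or without double-modified replicate 1 or 3.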
